A study of Homo sapiens with 24 samples.

Results

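The mRNAs of the general transcription factors TFIIIC and TFIIIB were followed across RNA immunoprecipitations of RUVBL1 and RPAP3. The members were chosen by gene symbol, with no measured value in the rule: the TFIIIC subunits GTF3C1, GTF3C2, GTF3C3, GTF3C4, GTF3C5 and GTF3C6, and the TFIIIB subunits BDP1, BRF1, BRF2 and TBP. These are 10 of the 28307 genes in the count table. All 10 were present and passed the filter on low counts in both cell lines. They were chosen with earlier results of these data known.

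The study used HCT116, a human colorectal carcinoma cell line, with GFP placed by CRISPR/Cas9 into the gene of either RUVBL1 or RPAP3. Each lysate was bound to GFP-Trap beads, which capture the tagged protein, or to uncoupled agarose beads, which measure RNA held without the tag. The RUVBL1 line was left untreated, given puromycin at 100 µg/mL for 30 min, given CB-6644 at 0.5 µM for 16 h, or given both drugs. The RPAP3 line was left untreated or given puromycin at the same dose and time. Every combination of line, bead and treatment had 2 libraries, which makes 24 in all. Control beads and GFP beads came from the same tagged line, and no untagged line was analysed here. Whether a line is a single clone, and whether replicates were separate cultures, is not given in the sources used here, and a p-value here reflects differences among libraries that could be technical alone.

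TFIIIC binds the internal promoter boxes of tRNA genes, and with TFIIIA those of 5S rRNA genes, and then places TFIIIB upstream of the start site. TFIIIB holds TBP, BDP1 and either BRF1 or BRF2 and recruits RNA polymerase III. RUVBL1 is an AAA+ ATPase that works with RUVBL2, and together with RPAP3 and PIH1D1 it forms R2TP, an HSP90 co-chaperone known for assembling RNA polymerases and other complexes. Puromycin releases nascent chains from ribosomes, and CB-6644 inhibits the RUVBL1/2 ATPase.

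Levels below are CPM (counts relative to library size) scaled by the TMM method within a line. Enrichment is the log2 ratio of GFP over uncoupled beads, given with its standard error (SE). A gene is called where edgeR's quasi-likelihood test gave a Benjamini-Hochberg adjusted p under 0.05 over all genes tested in that line. The 16 RUVBL1 libraries held 9019665 to 33051512 counts and the 8 RPAP3 libraries 30844089 to 50394245. The biological coefficient of variation was 0.263 over 15976 tested genes in the RUVBL1 line and 0.142 over 15202 in the RPAP3 line, so an effect of a given size was estimated more precisely with RPAP3. On the first principal component of the RUVBL1 line, which held 33.1% of the variance, replicate 2 of the CB-6644 GFP libraries scored 68.7 and replicate 1 of the GFP libraries with both drugs scored 53.3, against -32.4 to 21.9 for the rest. Of 8 markers of blood, stromal and liver cells, 3 passed the filter in the RUVBL1 line, and their summed level was highest in those same libraries, at 37.8 and 23.5 CPM. It was 9.28 and 9.11 CPM in their partners and 6.00 to 12.0 CPM over the uncoupled libraries of the line. Most of this was COL1A1, at 34.7 and 20.2 CPM. The mRNA of the bait itself had an enrichment of 3.27 ± 0.14 with RPAP3 in untreated cells, which changed by -3.36 ± 0.19 with puromycin, while RUVBL1 mRNA gave 1.08 ± 0.34 with RUVBL1 (adjusted p 0.18). Of 7 colon epithelial markers, KRT8, KRT18, KRT19 and EPCAM were high in all libraries, and VIL1, a villin of the brush border, had at most 29 counts in the RPAP3 line.

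Among the TFIIIC mRNAs, GTF3C1 was the one recovered with both tagged proteins in untreated cells. GTF3C1 encodes the largest TFIIIC subunit, which contacts the B box of the promoter. Its gene (gene ID 2975) spans chromosome 16 from 27460613 to 27549913 in the RefSeq annotation of hg38. In untreated RPAP3 cells its level was 135 and 163 CPM on GFP beads against 41.5 and 42.2 CPM on uncoupled beads. Both GFP libraries lay above both uncoupled libraries. The log2 enrichment was 1.83 ± 0.16 (SE, 2 against 2 libraries), a 3.56-fold difference with an adjusted p of 2.2e-07.

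With RUVBL1 in untreated cells, GTF3C1 stood at 666 and 204 CPM on GFP beads against 146 and 77.3 CPM on uncoupled beads. The groups did not overlap, but 1 GFP library was far above the other. The log2 enrichment was 1.96 ± 0.41 with an adjusted p of 0.034, and it ranked at position 283 from the top of all tested genes. Leaving out the high GFP library, replicate 1, gave 0.87 with an adjusted p of 0.37, and leaving out replicate 2 of the uncoupled beads gave 1.57 with an adjusted p of 0.22. Without replicate 2 of the GFP beads it was 2.57. The size thus moved more than 1.5 times without replicate 1 of the GFP beads, and less than that without replicate 2. Scaling by total counts gave 1.89 with an adjusted p of 0.082. The difference in GTF3C1 enrichment between the lines, RUVBL1 minus RPAP3, was 0.18 ± 0.53 with an adjusted p of 0.98 in the fit of all 24 libraries.

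The other TFIIIC mRNAs were not called in untreated cells with either protein. GTF3C2 belongs with GTF3C1 to the module that binds the B box, GTF3C3 is a TPR protein that contacts TFIIIB, and GTF3C4 links this module to the rest of the complex. Their log2 enrichments with RPAP3 were 0.07 ± 0.13, 0.02 ± 0.13 and -0.09 ± 0.12, each within about 1 SE of zero. GTF3C5 and GTF3C6 form a dimer on the A box side, and they gave 0.06 ± 0.13 and 0.22 ± 0.13. With RUVBL1 the same 5 genes ranged from -0.11 for GTF3C6 to 0.48 ± 0.21 for GTF3C5, whose adjusted p was 0.37. GTF3C5 nevertheless had both GFP libraries, at 102 and 102 CPM, above both uncoupled libraries, at 79.9 and 66.1 CPM.

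Among the TFIIIB mRNAs, BDP1 was recovered with RPAP3 and not with RUVBL1 in untreated cells. BDP1 encodes the SANT-domain subunit shared by the BRF1 and BRF2 forms of TFIIIB, and its gene (gene ID 55814) spans chromosome 5 from 71455651 to 71578288. In untreated RPAP3 cells BDP1 was at 157 and 166 CPM on GFP beads against 70.7 and 84.4 CPM on uncoupled beads. The GFP libraries lay close together and above the uncoupled ones. The log2 enrichment was 1.06 ± 0.16 with an adjusted p of 4.2e-04. In untreated RUVBL1 cells BDP1 was at 79.4 and 80.5 CPM on GFP beads against 127 and 99.7 CPM on uncoupled beads, with both GFP libraries the lower. This gave -0.50 ± 0.26, which did not pass the test (adjusted p 0.48).

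The difference between the lines was tested directly for BDP1. RUVBL1 minus RPAP3 was -1.51 ± 0.34 in untreated cells, with an adjusted p of 0.034. BDP1 was the only member called, against 0.0599% of the 16695 genes of the joint fit called lower. Its adjusted p rose to between 0.095 and 0.25 in 7 of the 8 runs that left out a library, all but the one without replicate 2 of the RUVBL1 uncoupled beads, while the difference over all 8 runs stayed between -1.69 and -1.31.

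BRF1 directs TFIIIB to tRNA and 5S genes and BRF2 to the U6 type of promoter, while TBP, the TATA-binding protein, serves all nuclear RNA polymerases. None of these was called in untreated cells with either protein. With RPAP3 the log2 enrichments were 0.08 ± 0.18, 0.19 ± 0.25 and -0.10 ± 0.15, and with RUVBL1 they were 0.32 ± 0.24, 0.23 ± 0.31 and -0.04 ± 0.25. BRF2 was the scarcest of them in reads, with 51 to 538 counts per library. Counts of BRF1 and BRF2 may include reads of genes that overlap them, BTBD6 and PACS2 for BRF1 and ADGRA2 for BRF2, and GTF3C2 is overlapped by its antisense gene; the strand setting of the counting is not given in the sources used here.

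In untreated cells 2 of 10 members were called higher with RPAP3, where 1.53% of all tested genes were, and 1 of 10 with RUVBL1, where 0.914% were. No member was called lower in either. The median log2 enrichment of the 10 members was 0.07 with RPAP3 and 0.18 with RUVBL1, beside -0.01 and -0.04 over all genes tested.

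**Figure D1:**
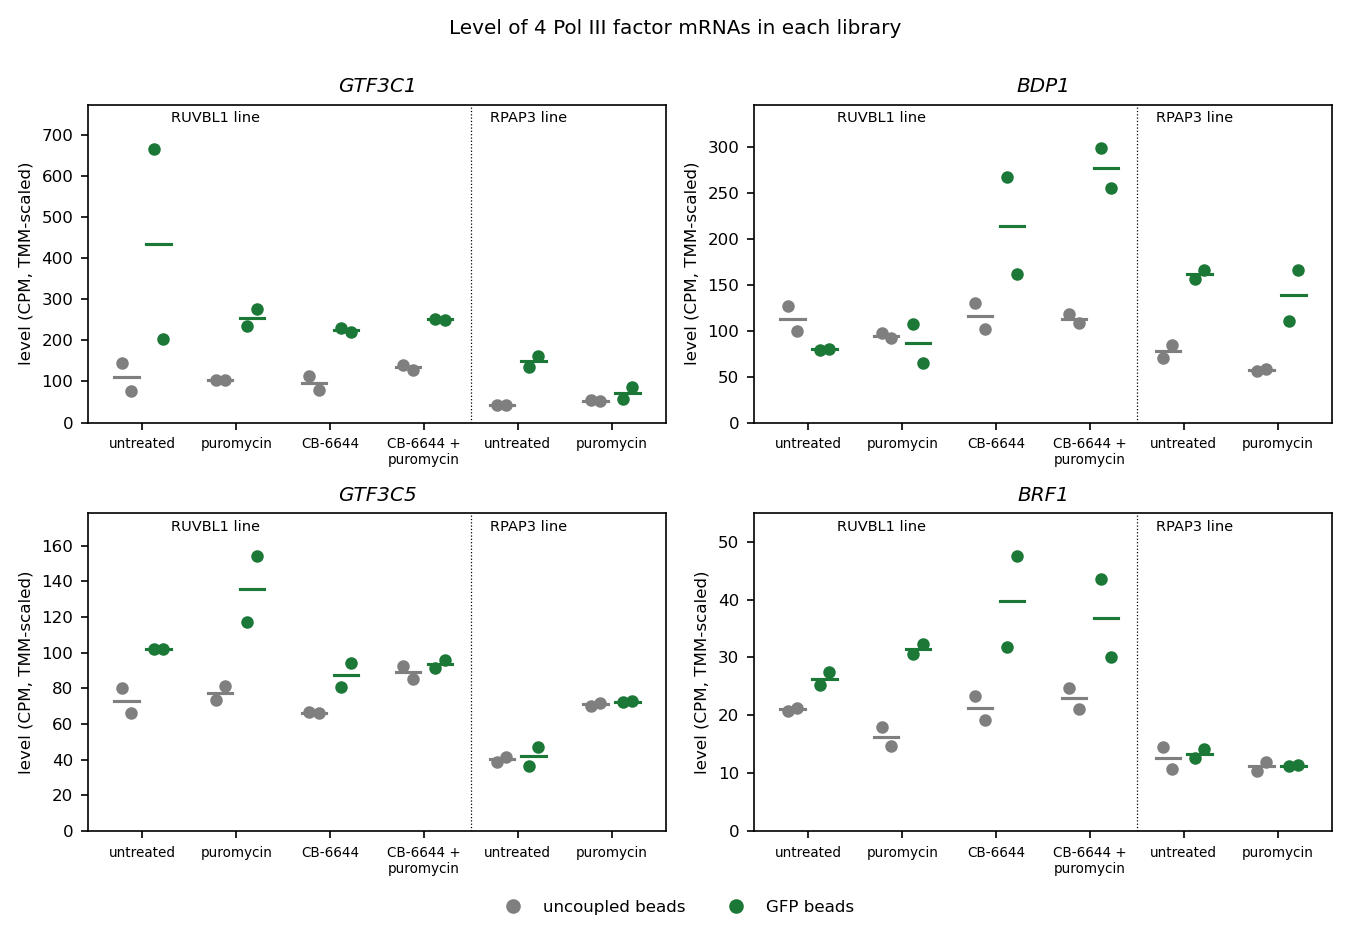
Level (CPM, TMM-scaled within each line, linear axis from 0) of GTF3C1, BDP1, GTF3C5 and BRF1 in each of the 24 libraries, with uncoupled beads in grey, GFP beads in green and a bar at the mean of the 2 libraries. GTF3C1 lay higher on GFP beads in every condition, while BDP1 lay higher on GFP beads in both RPAP3 conditions and, in the RUVBL1 line, after CB-6644 but not in untreated or puromycin-treated cells.

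The enrichment of GTF3C1 with RPAP3 fell with puromycin, while BDP1 was called with RPAP3 both without and with the drug. After puromycin GTF3C1 was at 57.9 and 86.9 CPM on RPAP3 GFP beads against 54.4 and 52.4 CPM on uncoupled beads. The GFP libraries were still the higher, 1 of them by little. Enrichment was 0.44 ± 0.16 with an adjusted p of 0.70, and the change from untreated cells was -1.39 ± 0.22 with an adjusted p of 0.0021. That change ranged from -1.72 to -1.13 in the 8 runs that left out a library, and its adjusted p stayed at 0.040 or below.

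BDP1 was at 110.5 and 166.5 CPM on RPAP3 GFP beads after puromycin against 56.5 and 58.1 CPM on uncoupled beads. Both GFP libraries lay well above the uncoupled ones. The log2 enrichment was 1.27 ± 0.16 with an adjusted p of 2.9e-04, and the change from untreated cells was 0.22 ± 0.22, with an adjusted p above 0.99. The comparisons with and without the drug do not share libraries.

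The other 8 members had log2 enrichments of -0.09 to 0.20 with RPAP3 after puromycin, and none was called. BDP1 was thus 1 of 10 members called higher, where 0.46% of all tested genes were. For the change with puromycin, GTF3C1 was 1 of 10 members called, where 0.25% of all tested genes were called in either direction. The median change of the members was -0.02, beside 0.00 over all genes tested. In the fit of all 24 libraries, whose spread was larger, the untreated GTF3C1 enrichment of 1.80 had an adjusted p of 0.067 and its change of -1.39 ± 0.54 was not called (adjusted p above 0.99).

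With RUVBL1, puromycin did not change the enrichment of any member past the test, where 0.113% of all tested genes were called. The change was -0.65 ± 0.57 for GTF3C1 (adjusted p 0.75), 0.37 ± 0.37 for BDP1 and 0.62 ± 0.34 for BRF1. For GTF3C1 both zero and the change seen with RPAP3 lay within 2 SE of this value, and the difference between the lines in this change was not tested.

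After puromycin, 3 members were called higher with RUVBL1: GTF3C1, GTF3C5 and BRF1. At that point 9.95% of all tested genes were called higher, so calls were common in this comparison. GTF3C1 was at 234 and 277 CPM on GFP beads against 103.5 and 102.5 CPM on uncoupled beads, without overlap. Its enrichment was 1.31 ± 0.41 with an adjusted p of 0.043. All 4 runs that left out a library ended this call, with values of 1.18 to 1.41 and adjusted p of 0.094 to 0.24, as did upper-quartile scaling (1.22, adjusted p 0.055) and total-count scaling (1.34, adjusted p 0.056).

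GTF3C5 (gene ID 9328, chromosome 9 from 133030708 to 133058503) was at 117 and 154 CPM on RUVBL1 GFP beads after puromycin against 73.5 and 81.1 CPM on uncoupled beads. The groups were apart. Enrichment was 0.81 ± 0.21 with an adjusted p of 0.011, and it was lost in 3 of 4 runs without a library, all but the one without replicate 1 of the GFP beads, with values over the 4 of 0.59 to 0.99. BRF1 (gene ID 2972, chromosome 14 from 105209286 to 105315589) was at 30.6 and 32.3 CPM against 18.0 and 14.7 CPM. Here the GFP libraries agreed closely and lay above both uncoupled libraries. Enrichment was 0.94 ± 0.24 with an adjusted p of 0.012, and it was also lost in 3 of 4 such runs, again all but the one without replicate 1 of the GFP beads, with values over the 4 of 0.81 to 1.10.

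Of the members not called with RUVBL1 after puromycin, BRF2 was at 15.9 and 20.2 CPM on GFP beads against 9.10 and 10.6 CPM, an enrichment of 0.87 ± 0.30 with an adjusted p of 0.052. GTF3C2 gave 0.56 ± 0.21 (adjusted p 0.070), with 67.4 and 88.5 CPM on GFP beads against 52.7 and 52.8 CPM. Both had groups that did not overlap, and DESeq2 and the fit of all 24 libraries each called 5 members, these and the 3 above. GTF3C6 lay the other way, at 34.2 and 34.4 CPM against 51.7 and 53.1 CPM, with -0.61 ± 0.26 (adjusted p 0.12). GTF3C3, GTF3C4, BDP1 and TBP gave 0.04, 0.36, -0.13 and -0.05.

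BDP1 again differed between the lines after puromycin. It was at 107.7 and 64.8 CPM on RUVBL1 GFP beads against 97.7 and 91.9 CPM on uncoupled beads, and these groups overlapped. RUVBL1 minus RPAP3 was -1.37 ± 0.34 with an adjusted p of 0.016, where 0.473% of genes were called lower. In 5 of 8 runs that left out a library the call was lost, with differences of -1.84 to -1.04 over the 8: without replicate 2 of the RUVBL1 GFP beads, replicate 1 of the RUVBL1 uncoupled beads, replicate B of the RPAP3 GFP beads, or either library of the RPAP3 uncoupled beads. GTF3C5 and BRF1 gave 0.82 ± 0.26 and 0.96 ± 0.32 in the other direction, with adjusted p of 0.063 and 0.079, so their calls with RUVBL1 alone were not shown to set the lines apart.

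**Figure D2:**
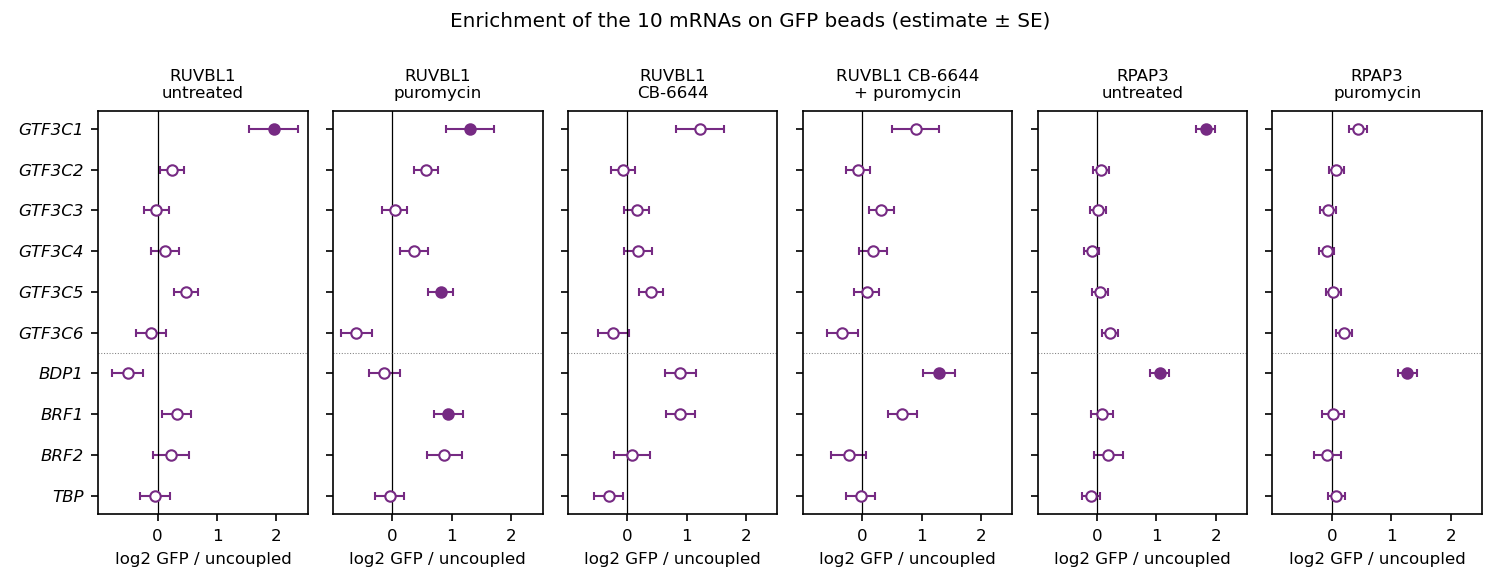
Log2 enrichment on GFP over uncoupled beads (x axis, estimate ± SE from 2 against 2 libraries) of the 10 mRNAs, with TFIIIC above and TFIIIB below the dotted line, in 6 combinations of tagged protein and treatment. Filled points passed an adjusted p of 0.05: GTF3C1 in 3 panels, BDP1 in 3, and GTF3C5 and BRF1 in 1 each.

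After CB-6644 alone no member was called with RUVBL1, where 1.87% of all tested genes were called higher, although several stood apart. BDP1 was at 267 and 162 CPM on GFP beads against 130 and 101.7 CPM on uncoupled beads. The GFP libraries were above the uncoupled ones and unequal. Enrichment was 0.89 ± 0.26 with an adjusted p of 0.066. Without replicate 2 of the GFP beads, the library that stood apart on the first principal component and had the most COL1A1, BDP1 gave 1.20 with an adjusted p of 0.0098. Without replicate 1 of the GFP beads it gave 0.48 (adjusted p 0.19), and without replicate 1 or 2 of the uncoupled beads 1.08 and 0.72 (adjusted p 0.22 and 0.42). The estimate therefore fell by more than 1.5 times without replicate 1 of the GFP beads, and rose by less than that without replicate 2.

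BRF1 was at 31.8 and 47.6 CPM on GFP beads against 23.4 and 19.2 CPM after CB-6644, with an enrichment of 0.89 ± 0.24 and an adjusted p of 0.0501. Its GFP libraries were both higher, the library rich in COL1A1 the most, and without that library it gave 0.58 with an adjusted p of 0.38. GTF3C1 was at 229 and 220.2 CPM against 112.8 and 78.9 CPM, an enrichment of 1.23 ± 0.41 with an adjusted p of 0.11. These GFP libraries were nearly equal. The calls for this treatment moved with the method: DESeq2, the fit without a count filter and the fit of all 24 libraries each called GTF3C1, BDP1 and BRF1. Of the other members, TBP had the lowest estimate, -0.31 ± 0.25, and GTF3C5 the highest, 0.40 ± 0.21.

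With both drugs BDP1 was the member called, 1 of 10 where 0.557% of all tested genes were called higher. It was at 299.6 and 255.9 CPM on GFP beads against 117.8 and 108.7 CPM on uncoupled beads, its highest mean level in the RUVBL1 line. The groups were far apart. Enrichment was 1.29 ± 0.26 with an adjusted p of 0.015. Without replicate 1 of the GFP beads, which also stood apart, it was 1.16 with an adjusted p of 0.21, and without replicate 1 or replicate 2 of the uncoupled beads it was 1.34 and 1.22, with adjusted p of 0.29 and 0.47. GTF3C1 was at 252.7 and 249.8 CPM against 140.7 and 128.5 CPM, which gave 0.90 ± 0.40 (adjusted p 0.57), and BRF1 gave 0.68 ± 0.24 (adjusted p 0.38). The other members lay between -0.33 and 0.33.

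The change with CB-6644 was largest for BDP1, without passing the test. Relative to untreated RUVBL1 cells, its enrichment was 1.39 ± 0.37 higher on the log2 scale (adjusted p 0.16), and relative to puromycin alone it was 1.43 ± 0.37 higher under both drugs (adjusted p 0.15). These comparisons share no libraries, whereas the changes with puromycin and with CB-6644 share the untreated ones. DESeq2 put both past the threshold, at 1.44 and 1.45 with adjusted p of 0.016 for each. So did the fit without a count filter, at 1.41 and 1.45 with adjusted p of 0.0091 and 0.011, and the fit of all 24 libraries, at 1.41 and 1.42 with adjusted p of 0.039 and 0.041. Over the 8 runs that left out a library, the former ranged from 0.98, without replicate 1 of the CB-6644 GFP libraries, to 1.70, without replicate 2 of them, with adjusted p of 0.011 to 0.66. The run without replicate 2 was the only one of these past the threshold. The latter ranged from 1.10 to 1.85 with adjusted p of 0.070 and above, and no run passed.

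No member was called for the change with CB-6644 (0.188% of all tested genes), for CB-6644 under puromycin (0.106%), or for puromycin under CB-6644 (0.0501%). Under CB-6644, puromycin moved BDP1 by 0.40 ± 0.37 and GTF3C1 by -0.33 ± 0.57. In puromycin-treated cells CB-6644 gave -1.10 ± 0.42 for BRF2 (adjusted p 0.41) and -0.74 ± 0.29 for GTF3C5 (adjusted p 0.44). GTF3C1 gave -0.73 ± 0.57 with CB-6644 alone.

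**Figure D3:**
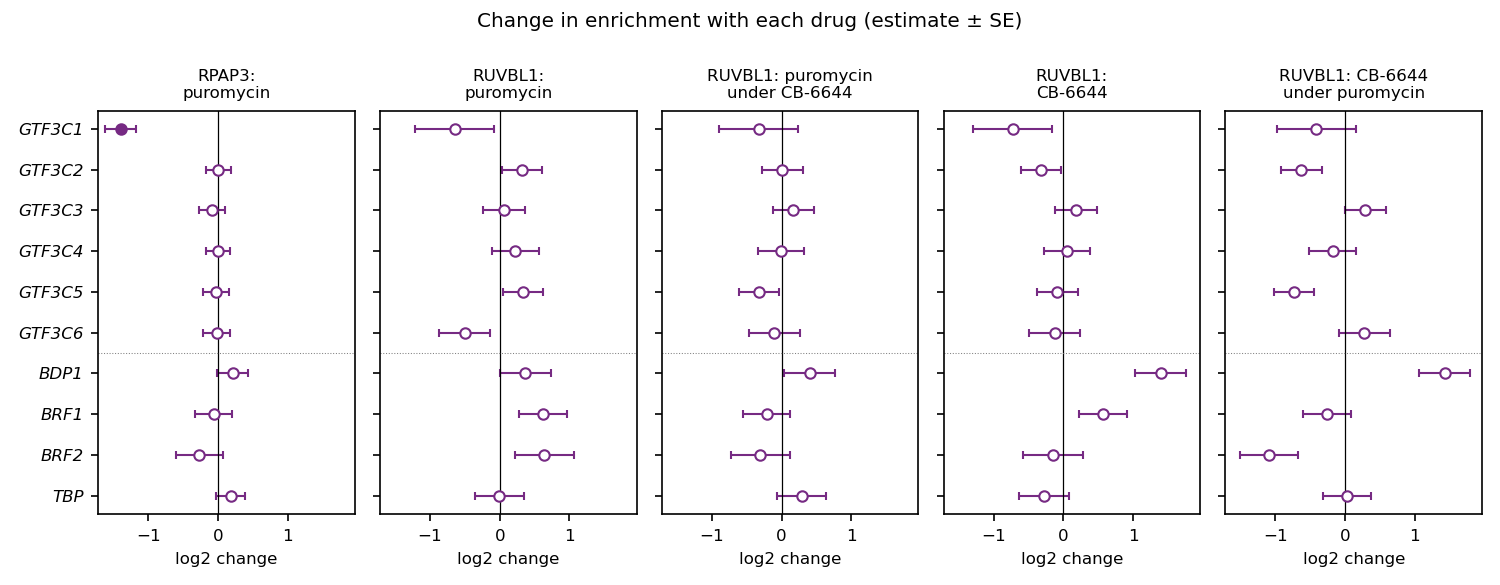
Change in log2 enrichment with each drug (x axis, estimate ± SE) for the 10 mRNAs, with TFIIIC above and TFIIIB below the dotted line. The filled point is the one call, GTF3C1 with RPAP3 after puromycin at -1.39; BDP1 lay at 1.39 and 1.43 for CB-6644 without and with puromycin.

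The members also moved on the uncoupled beads of the RPAP3 line, so the denominator of the enrichment was not constant. With puromycin, 3 of 10 members rose there, where 23.5% of all tested genes did, and 2 fell, where 19.4% did. Both shares were near that background. BRF2 went from 2.39 and 3.72 CPM in untreated cells to 10.6 and 10.7 CPM, a log2 difference of 1.79 ± 0.24 with an adjusted p of 3.8e-06. GTF3C3 rose by 0.97 ± 0.13 and GTF3C5 by 0.82 ± 0.13. GTF3C6 changed by -0.74 ± 0.13 (adjusted p 1.3e-04).

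BDP1 changed by -0.44 ± 0.16 on those beads, and this call (adjusted p 0.030) was lost in 3 of 4 runs that left out a library and kept in the run without replicate A of the untreated beads; values over the 4 were -0.51 to -0.29. It was also lost in the fit of all 24 libraries (-0.53, adjusted p 0.10). GTF3C1 gave 0.35 ± 0.16 (adjusted p 0.078) on the uncoupled beads, and this rise is part of its change in enrichment of -1.39. Its mean level went from 149 to 72.4 CPM on RPAP3 GFP beads and from 41.9 to 53.4 CPM on uncoupled beads. The share of each bead type in that change was not tested. On RPAP3 GFP beads BRF2 moved as it did on uncoupled beads, from 3.94 and 3.08 CPM to 9.06 and 11.2 CPM, and its enrichment after puromycin was -0.08 ± 0.23.

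On the uncoupled beads of the RUVBL1 line edgeR called none of the 15976 genes after puromycin or after CB-6644. At an unadjusted p under 0.05 there were 1464 and 860 genes, of which 1 and 0 were members. DESeq2 called 34 and 5 genes. BRF2 had the highest estimate of the members with each drug, 0.67 ± 0.31 and 0.30 ± 0.31.

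**Figure D4:**
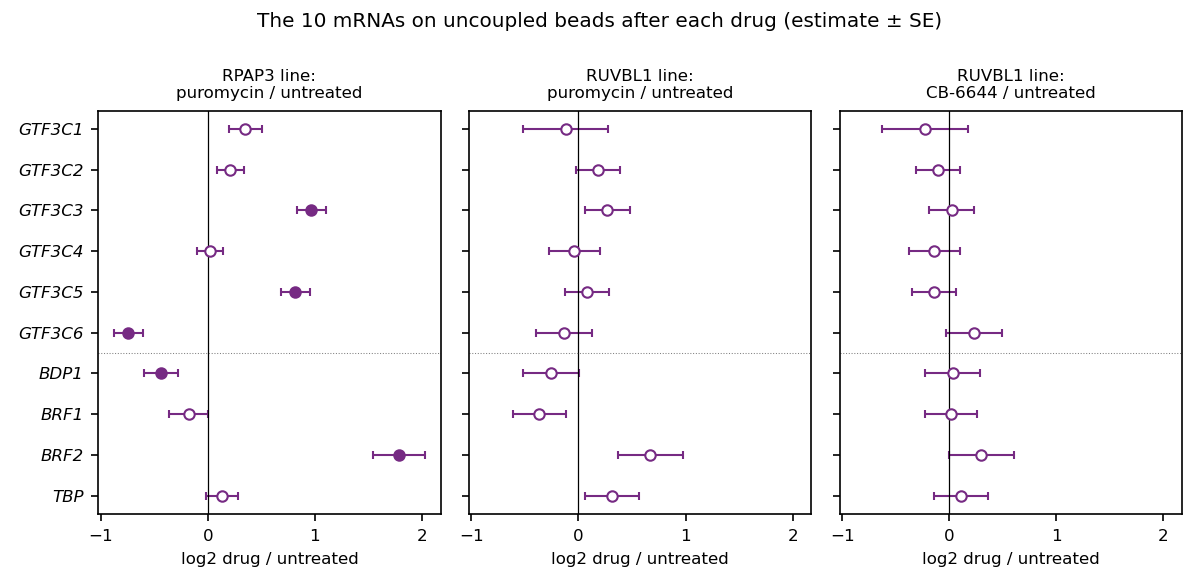
Log2 difference on uncoupled beads between drug-treated and untreated cells (x axis, estimate ± SE) for the 10 mRNAs, with TFIIIC above and TFIIIB below the dotted line. In the RPAP3 line BRF2, GTF3C3 and GTF3C5 were called higher and GTF3C6 and BDP1 lower after puromycin, and no member was called in the RUVBL1 line.

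In untreated cells, at most 1 mRNA of each neighbouring group was called with either protein. Of 18 subunits of RNA polymerase III, only POLR3A, the largest, was called with either protein in untreated cells. It gave 4.09 ± 0.18 with RPAP3 and 3.07 ± 0.42 with RUVBL1. The untreated RUVBL1 GFP libraries were unequal for POLR3A, at 433 and 124 CPM against 39.6 and 26.3 CPM on uncoupled beads. Of 10 other polymerase III factors SNAPC4, the largest subunit of the complex that works with BRF2 at U6-type promoters, was called with RPAP3 at 3.06 ± 0.17 and gave 1.42 ± 0.37 with RUVBL1 (adjusted p 0.092). Like GTF3C1, both changed with puromycin in the RPAP3 line: POLR3A by -4.08 ± 0.23 and SNAPC4 by -2.31 ± 0.23. SNAPC4 kept a smaller enrichment of 0.75 ± 0.16 (adjusted p 0.038), whereas POLR3A was at 0.01 ± 0.16.

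TBP was not called in any of the 6 enrichments. Of 25 mRNAs of other TBP-containing or TBP-binding complexes 1 was called higher with RPAP3 in untreated cells, TAF1, the largest TFIID subunit, at 0.68 ± 0.13, and 0 with RUVBL1. Of 16 tested general factors of RNA polymerase II none was called with RPAP3 and ERCC3, a TFIIH helicase, was called with RUVBL1 at 0.95 ± 0.23. GTF2B, the polymerase II paralogue of BRF1 and BRF2, gave 0.08 ± 0.16 with RPAP3 and 0.32 ± 0.28 with RUVBL1.

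After puromycin 3 of the 69 tested genes of these groups were called higher with RUVBL1 and 10 lower, where 9.95% and 3.82% of all tested genes were. SNAPC4 (1.22 ± 0.37) and the TFIIH helicases ERCC2 (1.66 ± 0.24) and ERCC3 (0.78 ± 0.23) were the ones higher. Among those lower were GTF3A, the 5S rRNA gene factor TFIIIA (-0.87 ± 0.27), and the small polymerase subunits POLR1D (-0.99 ± 0.28) and POLR2K (-0.81 ± 0.26). TAF9 (-1.14 ± 0.26) and TAF12 (-0.85 ± 0.25) of TFIID, the TBP paralogue TBPL1 (-0.94 ± 0.27) and the TFIIA subunit GTF2A2 (-1.04 ± 0.30) were also lower. After CB-6644, 1 of the 69 was called higher with RUVBL1 and 1 lower, where 1.87% and 0.557% of all tested genes were. The one higher was UBTF, a polymerase I factor (0.92 ± 0.22), and the one lower was the TFIIH kinase CDK7 (-0.95 ± 0.24).

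None of the tested transcripts made by RNA polymerase III was called higher in any of the 6 enrichments. With RUVBL1, the median log2 enrichment of 12 such transcripts was -0.78 in untreated cells, -0.85 after puromycin, -1.36 after CB-6644 and -0.29 with both drugs. After puromycin 2 of them were lower, BCYRN1 (-1.31 ± 0.24) and 7SK RNA, RN7SK (-1.56 ± 0.42). After CB-6644 6 were lower, where 0.557% of all tested genes were. Among them were BCYRN1 (-1.26 ± 0.24) and the RNAs of RNase P and RNase MRP, RPPH1 (-1.60 ± 0.35) and RMRP (-1.38 ± 0.33). Replicate 2 of the CB-6644 GFP libraries stood apart on the first principal component. Runs without a library and other scaling were followed only for the members, not for these transcripts. With RPAP3 the medians of 9 tested transcripts lay the other way, at 0.21 in untreated cells and 0.46 after puromycin. Of these, 8 and 9 were above zero and none was called. In the fit of all 24 libraries, RUVBL1 minus RPAP3 was called for 0 of 13 such transcripts in untreated cells. After puromycin it was called for 1, BCYRN1 (-1.79 ± 0.38, adjusted p 0.0078), where 0.473% of genes were called lower.

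**Figure D5:**
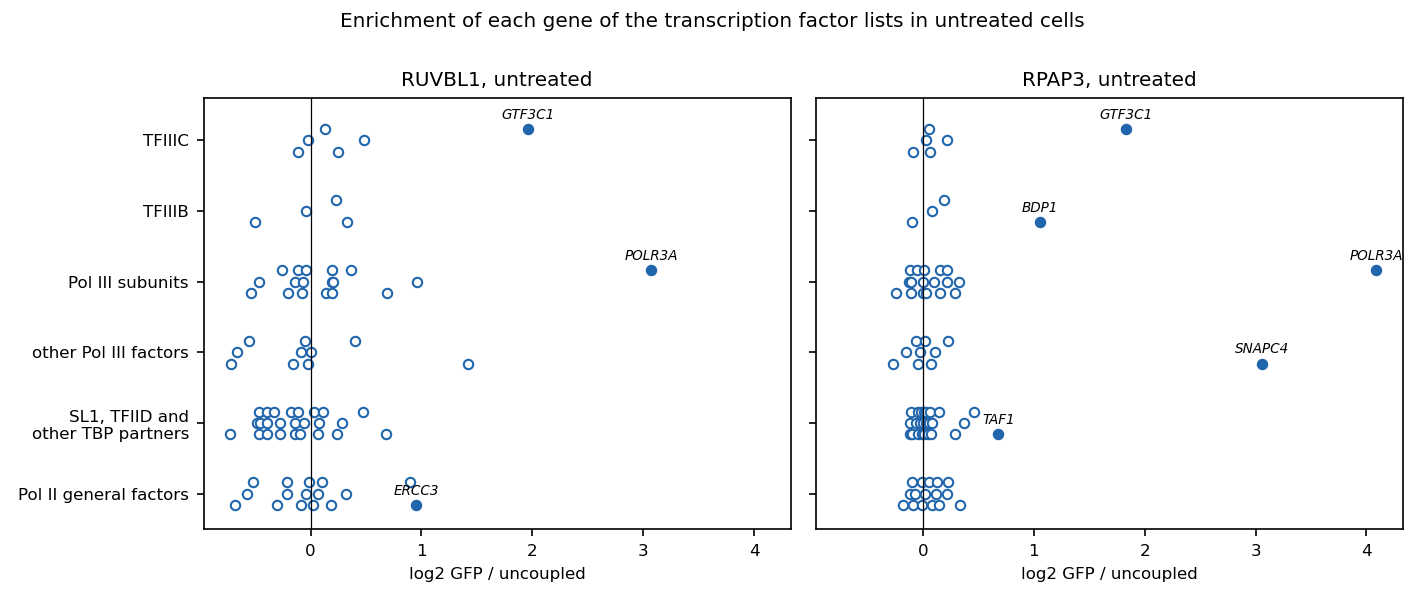
Log2 enrichment (x axis) in untreated cells of each tested gene of 6 lists of transcription factors (y axis, with points offset for legibility), for RUVBL1 and RPAP3. Filled, named points passed an adjusted p of 0.05; in each list most genes lay near 0 and at most 1 was called.

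The members did not vary as a block over the libraries. Pearson correlations of log2(CPM + 1) were taken over all 24 libraries after subtracting the mean of each line, which leaves bead, treatment and library quality shared by all points, and they are given as a description. GTF3C1 and BDP1 had r = 0.34. Within TFIIIC, GTF3C5 and its dimer partner GTF3C6 had r = -0.83. BRF2 had r = 0.82 with GTF3C3 and 0.80 with GTF3C5, the mRNAs that rose with it on the uncoupled RPAP3 beads.

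Among 10890 genes with a mean of at least 5 CPM, those most like GTF3C1 included PDCD11 (r = 0.97), SYNJ2 (0.94), TYK2 (0.93) and TNS2 (0.91). Those most like BDP1 were BAZ2B (0.95), SETD2 (0.93), TRIP11 (0.92), ROCK1 (0.92) and ZC3H13 (0.91). For GTF3C5 they were POLRMT, APEH, GPC1, GALNT2 and ILVBL, with r of 0.94 to 0.95, and for BRF1 they were CACNA1H, PKD1P6-NPIPP1, PLEKHG5, HELZ2 and KATNIP, with r of 0.90 to 0.94. No gene was shared among these lists.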

How the data were processed

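RNA from 24 immunoprecipitates was sequenced by the authors. Per the submitters' processing notes, featureCounts 2.0.3 and TopHat2 2.1.1 were among the tools, beside bcl2fastq 2.20.0.422 and the read checks MultiQC 1.12 and FastQC 0.11.9, and the build was hg38. The deposited table holds raw read counts per gene. Per the labels' protocols a stranded SMART-Seq kit was used; the strand setting, annotation release and treatment of multiply placed reads are not given in the sources used here, so reads of overlapping genes could be shared. From these counts, edgeR 4.0.16 (R 4.3.3) filtered genes with filterByExpr, scaled libraries by TMM and fitted quasi-likelihood models to each line, with 1 mean per group; differences between lines used 1 fit of all 24 libraries. The SE was derived from each F statistic, with the spread pooled over the fit's libraries. Calls used a Benjamini-Hochberg adjusted p of 0.05. The test was checked on simulated counts. Replicates of a group differed by 12.9 to 93.1 times the sampling noise (chi-square per degree of freedom), so none was a copy. Shared replicate numbers were not used as pairs, and a fit with a replicate block is among the alternatives. Deviations of same-numbered libraries correlated at -0.50 to 0.38 over 28 pairs of groups in the RUVBL1 line. In the RPAP3 line they correlated at 0.00 to 0.27 over 6. All pairs among the untreated and puromycin groups of the RUVBL1 line were positive, at 0.10 to 0.16. The -0.50 was between the GFP groups with CB-6644 and with both drugs, each holding 1 library that stood apart. The next lowest value was -0.16. All members were named in the text. Other genes that could be named were the baits, up to 3 called genes of smallest p per list and comparison, GTF2B, and the 5 genes most correlated with each member called in an enrichment, of which 1 is not reported here. The members and lists were chosen with earlier results of these data known. Gene IDs of all 10 members matched the RefSeq table (GRCh38.p14), which gave the positions. Alternatives were other scaling, no filter, DESeq2 1.42.0, a replicate block, the fit of all 24 libraries, and leaving out each library.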

Additional observations from a re-analysis of the deposited data

Results flagged for a closer look

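BDP1 enrichment differed between the tagged lines by edgeR's quasi-likelihood test of the difference itself, RUVBL1 minus RPAP3, over all 24 libraries. The difference was -1.51 ± 0.34 in untreated cells (adjusted p 0.034) and -1.37 ± 0.34 after puromycin (adjusted p 0.016). Leaving out a library gave -1.69 to -1.31 and -1.84 to -1.04, and most such runs ended each call, as given above. Each tagged protein was in its own line with its own replicate scheme, so protein and line cannot be told apart. In untreated cells both RPAP3 GFP libraries lay above their uncoupled beads and both RUVBL1 GFP libraries below theirs. The RUVBL1 libraries held 9019665 to 33051512 counts and the RPAP3 libraries 30844089 to 50394245, and the part of depth in the difference was not tested.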

How the results depend on the processing

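Direction under the alternatives was followed only for members called or near a call in a comparison, and none of those estimates reversed. It was not followed for the other estimates, many of them near zero. The number of members called moved as follows. With RUVBL1 in untreated cells it went from 1 to 0 under total-count scaling and was 0 to 1 when a library was left out. After puromycin it went from 3 to 5 with DESeq2 and to 5 with all 24 libraries in 1 fit, was 4 with a replicate block, 2 under upper-quartile scaling and 3 under total-count scaling (GTF3C2 in place of GTF3C1), and was 0 to 2 without a library. After CB-6644 it went from 0 to 2 under total-count scaling, to 3 without the filter, with DESeq2 or with all 24 libraries, and was 0 to 2 without a library; GTF3C6 was called lower in the run without replicate 1 of the GFP beads. With both drugs it went from 1 to 2 without the filter, and was 0 to 1 without a library. With RPAP3 in untreated cells it went from 2 to 1 with all 24 libraries, and for its change with puromycin from 1 to 0. For the change with CB-6644, alone or under puromycin, it went from 0 to 1 (BDP1) without the filter, with DESeq2 and with all 24 libraries, and for CB-6644 alone it was 0 to 1 without a library. For the difference between lines it was 0 to 1 without a library in untreated cells and after puromycin, and 2 with DESeq2 after puromycin.

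Replicate numbers were not used as pairs in the fits above, and whether they mark paired samples is not given in the sources used here. With a replicate block, 2 members were called with RUVBL1 after CB-6644, BDP1 (0.87, adjusted p 0.032) and BRF1 (0.90, adjusted p 0.040), against 0 without it; BRF2 with RUVBL1 after puromycin was also called (0.87, adjusted p 0.048), and GTF3C1 on uncoupled RPAP3 beads with puromycin gave 0.36 (adjusted p 0.047).

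Total-count scaling moved the median of all genes by 0.24 for the RUVBL1 enrichment after CB-6644, by 0.26 for its change with CB-6644 and by -0.20 for puromycin under CB-6644, and upper-quartile scaling moved it by -0.17 on uncoupled RPAP3 beads with puromycin. With 2 libraries a group, a missed threshold does not show that a member was unbound, and no input RNA was analysed here.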
